A study of Danio rerio with 8 samples.

Results

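The genes described here encode the cyclic nucleotide gated channels of rods and cones and the calcium exchanger that accompanies the rod channel. They were picked by gene symbol in the annotated table of the deposited data, and they number 8 of the 33737 genes counted. The rod channel group held 4 genes, *cnga1*, *CNGA1 (2 of 2)*, *cngb1a* and *CNGB1 (1 of 2)*. The cone channel group held 3 genes, *cnga3a*, *cnga3b* and *cngb3*, and *slc24a1* encodes the exchanger. A name ending in "(2 of 2)" marks an additional zebrafish copy of a human gene. All 8 members were among the 12564 genes that passed the filter on low counts.

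RNA-seq was performed on cells sorted by flow cytometry from dissociated retinas of adult zebrafish carrying the *xops:eGFP* transgene, in which a *Xenopus* rod opsin promoter drives GFP in rods. GFP+ cells (labelled as rods) and GFP- cells (labelled as non-rod retinal cells) came from both retinas of each of 4 dark-adapted fish. This gave 4 GFP+ and 4 GFP- libraries, 2 from each fish, and every fish carried the transgene. The fish are called fish 1 to 4 here. A suffix stands in the library titles of fish 3 and 4 and not in those of fish 1 and 2. Neither its meaning nor the sex of the fish is given in the labels.

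In photoreceptors the channel sits in the plasma membrane of the outer segment and is opened by cyclic GMP in the dark, so that sodium and calcium flow into the cell. Light activates phosphodiesterase 6, cyclic GMP falls and the channel closes. Alpha subunits (CNGA) can form the pore by themselves, whereas beta subunits (CNGB) tune its gating and its position in the cell. In mammals the rod channel combines CNGA1 with CNGB1 and the cone channel combines CNGA3 with CNGB3. The exchanger encoded by *slc24a1* is the rod sodium/calcium-potassium exchanger, which expels the calcium that enters through the channel.

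Counts assigned to genes ranged from 1722055 to 2514874 per library, and mitochondrial genes took 12.4% to 66.1% of them. A count of 0 allowed a level of up to 0.937 to 3.10 CPM, depending on the library, where CPM is the count scaled to library size with TMM factors. The sorted populations were checked against marker genes. Of 17 tested rod marker genes, 16 were higher in GFP+ libraries and the opsin kinase *grk1b* was lower. The summed rod marker level was 41751 to 74440 CPM in GFP+ libraries and 3576 to 15385 CPM in GFP- libraries. Of 17 tested cone marker genes, 16 were lower in GFP+ libraries, and their summed level was 6606 to 10122 CPM in GFP+ and 28553 to 57049 CPM in GFP- libraries. The 7 tested microglia and macrophage markers were all lower in GFP+ libraries, at 23.4 to 119 CPM in sum against 937 to 1832 CPM, and *mpeg1* had 0 counts in all 4 GFP+ libraries. None of the 7 tested Müller glia markers passed the threshold, at 561 to 941 CPM in sum in GFP+ and 1105 to 1759 CPM in GFP- libraries. In bulk populations such as these, fewer cells of a type and less RNA per cell cannot be told apart.

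Of the 8 members, 7 differed between the sorted populations, in the direction given by their group name in each case. Higher in GFP+ libraries were 4 members, *cnga1*, *CNGA1 (2 of 2)*, *cngb1a* and *slc24a1*, and lower were 3, *cnga3a*, *cnga3b* and *cngb3*. The remaining member, *CNGB1 (1 of 2)*, did not pass the test. The test was the quasi-likelihood F test of edgeR with the fish as blocking factor and with adjustment by Benjamini and Hochberg over all genes tested. A gene was called at a false discovery rate (FDR) under 0.01. Of all genes tested, 393 (3.13%) were called higher in GFP+ libraries and 714 (5.68%) were called lower. Libraries of the populations did not overlap for 4 members. In 3 of them all GFP+ libraries lay above all GFP- libraries, as for 5.59% of all genes tested, and in 1 all GFP+ libraries lay below, as for 8.96%. Without fish as blocking factor, 1 member (*cngb1a*) was called.

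**Figure D1:**
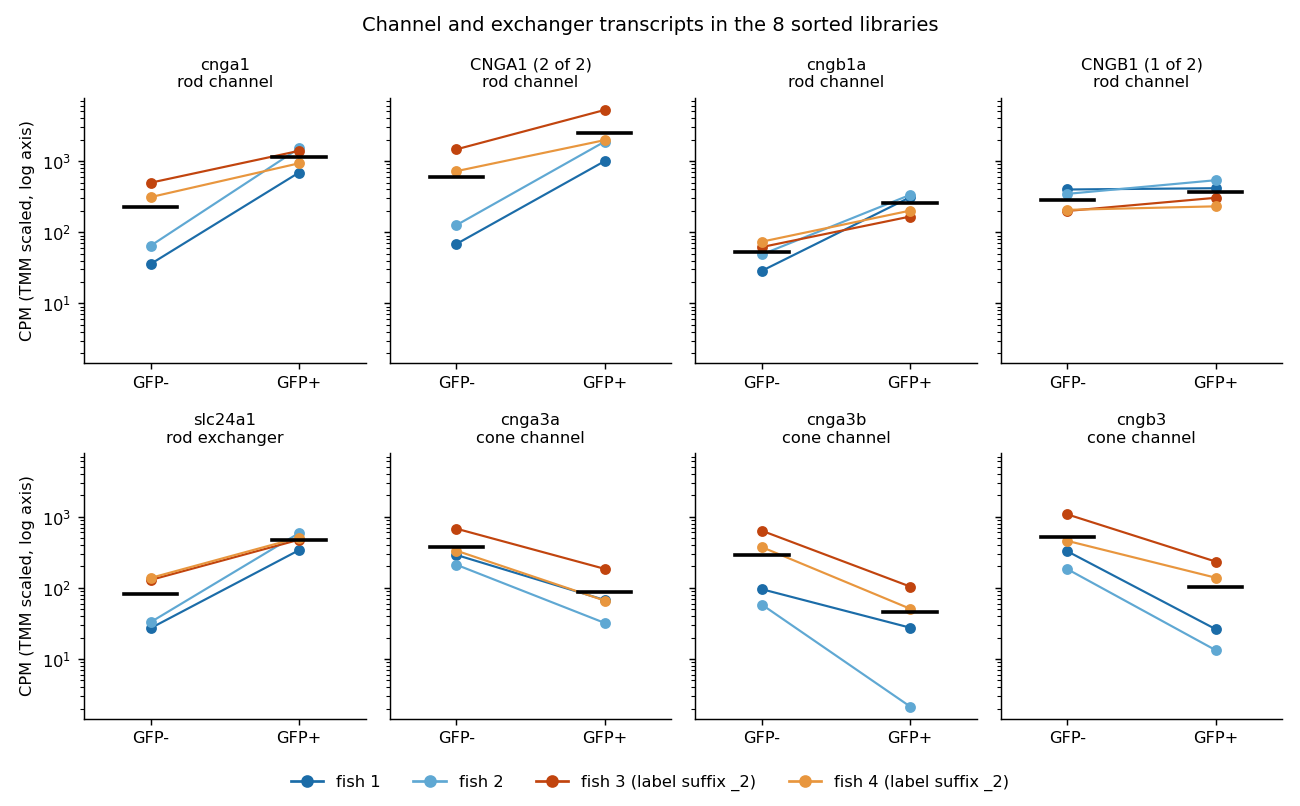
Level of each of the 8 transcripts in CPM (scaled by TMM, log axis) in GFP- and GFP+ libraries. Points are libraries, lines join the libraries of 1 fish, and black bars are means over 4 libraries. The lines rise in all 4 fish for *cnga1*, *CNGA1 (2 of 2)*, *cngb1a* and *slc24a1*, and they fall in all 4 fish for *cnga3a*, *cnga3b* and *cngb3*. For *CNGB1 (1 of 2)* they also rise in all 4 fish, by 1.04-fold to 1.56-fold.

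The first rod alpha subunit gene, *cnga1* (ENSDARG00000012125, Zv9 chr23:44017505-44034669, forward strand), is named for the pore-forming subunit of the rod channel. Its level in GFP+ libraries was 692, 1513, 1396 and 933 CPM in fish 1 to 4. In GFP- libraries of the same fish it was 35.9, 64.9, 498 and 312 CPM. The populations did not overlap, but the GFP- libraries of fish 3 and 4 stood well above those of fish 1 and 2. GFP+ libraries averaged 1134 ± 387 CPM (SD, n = 4), and the average of GFP- libraries was 228 ± 219 CPM (SD, n = 4). By edgeR the log2 fold change was 2.95 (standard error 0.45) and the FDR was 6.43e-05.

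The second rod alpha subunit gene, *CNGA1 (2 of 2)* (ENSDARG00000029898, Zv9 chr1:44276758-44281942, reverse strand), showed the same direction. Its GFP+ level in fish 1 to 4 was 1000, 1880, 5242 and 1975 CPM. In GFP- libraries it was at 68.4, 126, 1465 and 723 CPM. Fish 3 was highest in both populations, and its GFP- library exceeded the GFP+ library of fish 1, so the populations overlapped although GFP+ was higher within every fish. By edgeR the gene was higher by 2.76 on the log2 scale (standard error 0.39) with an FDR of 2.46e-05. Without fish as a block that FDR was 0.167.

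The proportion of the alpha subunit copies varied between fish more than between populations. Of the counts on the pair, *cnga1* took 40.9%, 44.6%, 21.0% and 32.1% in the GFP+ libraries of fish 1 to 4. In GFP- libraries it took 34.4%, 34.0%, 25.4% and 30.2%. Fish 3 had the lowest share in both populations. In the GFP+ libraries the 95% Wilson interval of fish 3, 20.2% to 21.9%, lay below that of fish 2, 43.5% to 45.7%. These intervals cover counting error only. The log2 ratio of *cnga1* to *CNGA1 (2 of 2)* was higher in GFP+ by 0.20 ± 0.43 (SD, n = 4 fish), a difference smaller than its spread between fish. No transcript lengths were used here, so a share within a pair does not rank its genes by abundance, and shares are compared between libraries only.

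The rod beta subunit genes differed from each other. *cngb1a* (ENSDARG00000068242, Zv9 chr18:43916999-43933739, forward strand) was counted at 311, 336, 166 and 202 CPM in GFP+ libraries of fish 1 to 4, and at 28.7, 48.7, 62.0 and 73.8 CPM in GFP- libraries. The populations did not overlap. Its GFP+ level was lower in fish 3 and 4 than in fish 1 and 2, which neither alpha subunit gene showed. The log2 fold change was 2.28 (standard error 0.34) and the FDR was 4.09e-05 by edgeR. It was the only member called without fish as a block, at an FDR of 0.00623.

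*CNGB1 (1 of 2)* (ENSDARG00000042107, Zv9 chr25:17867971-17912035, reverse strand), listed as *cngb1b* in a table of gene names, is the other beta subunit copy. Its level was 416, 540, 305 and 232 CPM in GFP+ libraries and 399, 347, 199 and 207 CPM in GFP- libraries of fish 1 to 4. GFP+ was the higher library in 4 of 4 fish, by 1.04-fold to 1.56-fold, and the populations overlapped. GFP+ libraries averaged 373 ± 134 CPM (SD, n = 4), beside 288 ± 101 CPM for GFP- libraries (SD, n = 4). Its log2 fold change was 0.37 (standard error 0.25) with an FDR of 0.39 by edgeR, so a difference was not called. In mammals CNGB1 is also a subunit of the olfactory channel.

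The share of *cngb1a* within the beta subunit pair was higher in GFP+ than in GFP- libraries. It took 42.8%, 38.4%, 35.3% and 46.5% of the counts on the pair in GFP+ libraries. In GFP- libraries it took 6.71%, 12.3%, 23.7% and 26.3%. All 4 GFP+ shares lay above all 4 GFP- shares. The log2 ratio of *cngb1a* to *CNGB1 (1 of 2)* was higher in GFP+ by 1.91 ± 1.13 (SD, n = 4 fish) in 4 of 4 fish. An exact two-sided sign-flip test gave p = 0.13 (2 of 16 sign patterns), the smallest that 4 fish allow, and 0.333 after adjustment over the 8 such ratios examined.

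**Figure D2:**
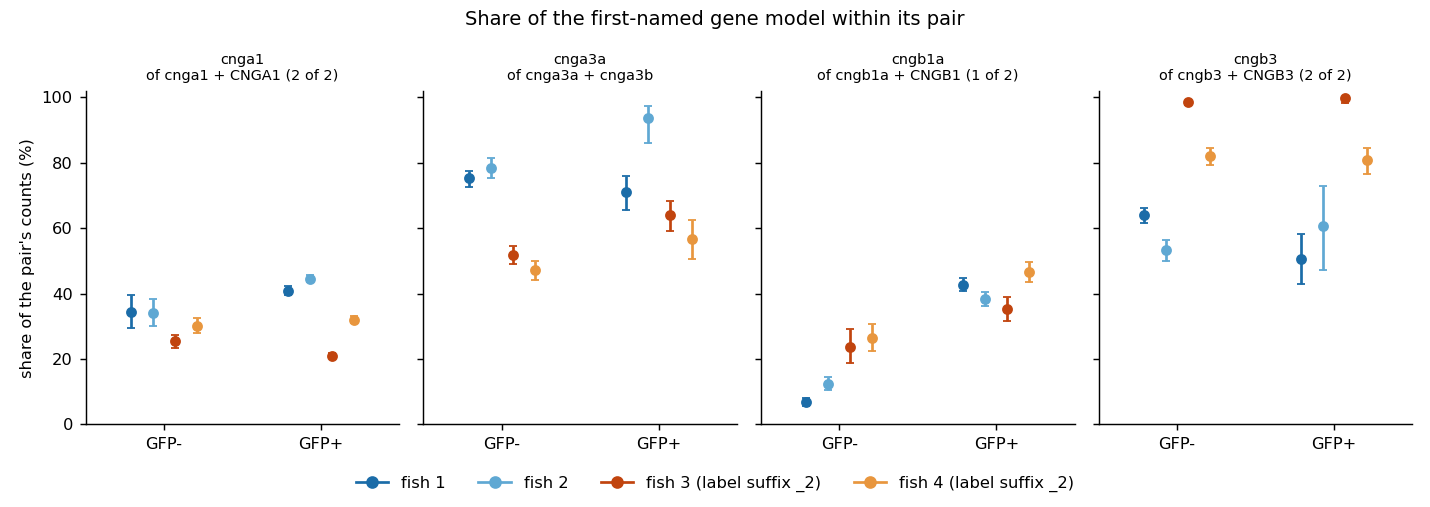
Share of counts taken by the first-named gene model of each pair in GFP- and GFP+ libraries, in percent, with 95% Wilson intervals. The share of *cngb1a* is higher in all GFP+ than in all GFP- libraries, whereas the share of *cngb3*, whose pair may be parts of 1 gene, lies above the values of fish 1 and 2 in both libraries of fish 3 and 4, at 98.5% and 99.7% in fish 3.

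The exchanger gene *slc24a1* (ENSDARG00000041431, Zv9 chr18:18786774-18822315, forward strand) followed the rod alpha subunits. Its GFP+ level was 339, 589, 475 and 509 CPM in fish 1 to 4. GFP- libraries held 27.2, 33.0, 129 and 138 CPM. The populations did not overlap, and the GFP- libraries of fish 3 and 4 were again higher than those of fish 1 and 2. GFP+ libraries averaged 478 ± 104 CPM (SD, n = 4) and GFP- libraries 81.8 ± 59.9 CPM (SD, n = 4). Its log2 fold change was 2.87 (standard error 0.36) with an FDR of 6.31e-06 by edgeR. Without fish as a block the FDR was 0.0134.

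The exchanger was also compared with the rod alpha subunits within a library. The log2 ratio of *slc24a1* counts to the summed counts of both alpha subunit genes differed between GFP+ and GFP- by 0.03 ± 0.32 (SD, n = 4 fish), less than its spread between fish. The differences of single fish lay between -0.38 and 0.39. The ratio of summed alpha subunit counts to *cngb1a* counts was higher in GFP+ in 4 of 4 fish, by 0.58 ± 0.57 on the log2 scale (SD, n = 4 fish; exact sign-flip p = 0.13, adjusted 0.333). That ratio differed more between fish than between populations. It was 5.44, 10.1, 39.9 and 14.4 in GFP+ libraries and 3.63, 3.91, 31.7 and 14.0 in GFP- libraries of fish 1 to 4, highest in fish 3 in both.

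The cone channel genes were lower in GFP+ libraries. The alpha subunit gene *cnga3a* (ENSDARG00000070726, Zv9 chr6:38725815-38749446, reverse strand) was counted at 67.4, 32.1, 185 and 66.2 CPM in GFP+ libraries of fish 1 to 4 and at 290, 211, 679 and 333 CPM in GFP- libraries. It was the only cone member whose populations did not overlap. Its log2 fold change was -2.25 (standard error 0.27) and the FDR was 3.84e-06 by edgeR. Without fish as a block the FDR was 0.0312.

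The second cone alpha subunit gene, *cnga3b* (ENSDARG00000012297, Zv9 chr1:9943233-9952650, forward strand), was counted at 27.5, 2.14, 104 and 50.8 CPM in GFP+ libraries. In GFP- libraries of the same fish it was at 95.6, 57.9, 634 and 373 CPM. Fish 3 and 4 were higher than fish 1 and 2 in both populations, and the GFP+ library of fish 3 exceeded both GFP- libraries of fish 1 and 2. The GFP+ library of fish 2 held 5 counts of this gene, so its 27.1-fold deficit there rests on few reads. The log2 fold change was -2.79 (standard error 0.34) with an FDR of 4.92e-06 by edgeR, and 0.0935 without fish as a block.

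The copies of the cone alpha subunit were divided by fish. Of the counts on the pair, *cnga3a* took 75.2%, 78.5%, 51.7% and 47.1% in GFP- libraries of fish 1 to 4. In GFP+ libraries it took 71.0%, 93.8%, 64.0% and 56.6%. The share was lower in fish 3 and 4 than in fish 1 and 2 in both populations. Between populations the log2 ratio of *cnga3a* to *cnga3b* differed by 0.75 ± 0.97 (SD, n = 4 fish), and it was higher in GFP+ in 3 of 4 fish.

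The cone beta subunit gene *cngb3* (ENSDARG00000061945, Zv9 chr24:31119016-31138441, forward strand) was counted at 26.2, 13.3, 234 and 139 CPM in GFP+ libraries and at 326, 183, 1077 and 457 CPM in GFP- libraries. The populations overlapped because the GFP+ level of fish 3 exceeded the GFP- level of fish 2. Within each fish GFP- was higher, by 12.4-fold, 13.8-fold, 4.61-fold and 3.29-fold in fish 1 to 4. The log2 fold change was -2.79 (standard error 0.34) and the FDR was 4.08e-06 by edgeR, or 0.0956 without fish as a block.

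A second gene model of the cone beta subunit, *CNGB3 (2 of 2)* (ENSDARG00000087082, Zv9 chr24:31096605-31115684, forward strand), lies 3331 bases from *cngb3* on the same strand and is not among the 8 members. It was also lower in GFP+ libraries, and by edgeR its log2 fold change was -2.96 (standard error 0.41, FDR 2.05e-05). Its order across fish differed from that of *cngb3*. It was counted at 184, 160, 16.5 and 99.5 CPM in GFP- libraries and at 25.5, 8.56, 0.708 and 32.6 CPM in GFP+ libraries of fish 1 to 4, and was lowest in fish 3, where *cngb3* was highest. The GFP+ level of fish 3 rests on 1 count. The share of *cngb3* in the counts on both models was 63.9%, 53.3%, 98.5% and 82.1% in GFP- libraries and 50.6%, 60.8%, 99.7% and 81.0% in GFP+ libraries. In both populations the shares of fish 3 and 4 lay above those of fish 1 and 2. The models may be separate copies or parts of 1 gene, which was not tested, and reads could have been split between them. The level of each model is therefore uncertain, and the share is not necessarily one between paralogs.

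Cone channel transcripts remained countable in GFP+ libraries, at 111 to 738 counts in sum per library. Cone markers as a list were also counted there, at 6606 to 10122 CPM in sum, and the part of cone cells or their RNA in these counts was not tested. The median within-fish log2 ratio of the 17 cone markers was -2.52, -3.04, -2.22 and -2.07 in fish 1 to 4. For *cnga3a* the same ratio was -2.10, -2.72, -1.88 and -2.33, so that fish 2 was lowest in both.

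To compare rod with cone subunits without a library size, the summed counts of the 4 rod channel genes were divided by those of the 3 cone channel genes. In GFP+ libraries of fish 1 to 4 the ratio was 20.0, 89.5, 13.6 and 13.1. In GFP- libraries it was 0.749, 1.30, 0.931 and 1.13. The GFP+ ratio was thus 26.7, 68.9, 14.6 and 11.5 times the GFP- ratio in the same fish, and all GFP+ libraries lay above all GFP- libraries. On the log2 scale, with a pseudocount of 0.5, the within-fish difference was 4.56 ± 1.15 (SD, n = 4 fish) and was positive in 4 of 4 fish. An exact two-sided sign-flip test gave p = 0.13, which is the smallest p that 4 fish can give. No transcript lengths were used, and the mix of rod genes differed between populations, so the ratio and its difference can also depend on gene length. In alternatives that were not planned, the difference was 5.32 ± 1.78 without *CNGB1 (1 of 2)* and 4.61 ± 1.26 with *CNGB3 (2 of 2)* added (SD, n = 4 fish).

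**Figure D3:**
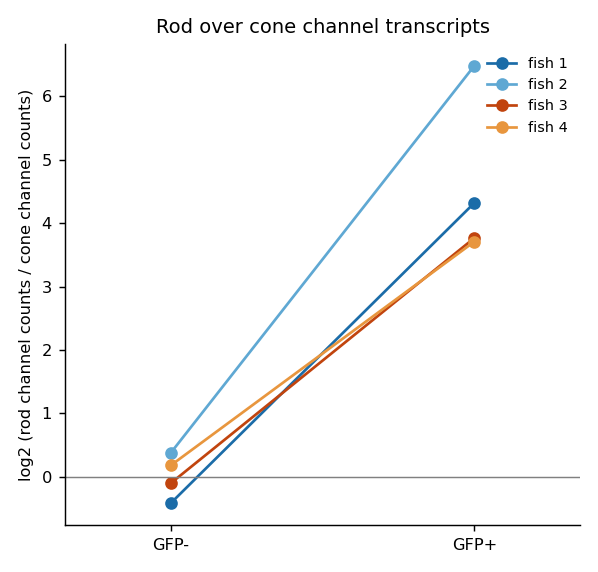
Log2 ratio of summed rod channel counts to summed cone channel counts in each library, with lines joining the libraries of 1 fish. GFP- libraries lie between -0.42 and 0.38, and GFP+ libraries lie between 3.71 and 6.48. Counts are not corrected for transcript length.

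GFP- libraries held rod channel transcripts as well, at 1528 to 2153 counts in sum. *CNGB1 (1 of 2)* alone made up 1279 of 1705 counts in fish 1 and 904 of 1528 in fish 2. In fish 3 and 4 it made up 193 of 2153 and 322 of 2051. The similar rod over cone ratios of the 4 GFP- libraries thus came mainly from different genes, *CNGB1 (1 of 2)* in fish 1 and 2 and alpha subunits in fish 3 and 4.

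The difference between sorted populations was not equal in the 4 fish. For *cnga1* GFP+ exceeded GFP- by 19.3-fold and 23.3-fold in fish 1 and 2 and by 2.80-fold and 2.99-fold in fish 3 and 4. *CNGA1 (2 of 2)* gave 14.6-fold and 14.9-fold, then 3.58-fold and 2.73-fold. For *slc24a1* the values were 12.5-fold and 17.8-fold, then 3.67-fold and 3.69-fold. For these genes the lower ratio in fish 3 and 4 went with a higher GFP- level. *cngb1a* gave 10.8-fold and 6.89-fold, then 2.68-fold and 2.73-fold. For *cngb3* GFP- exceeded GFP+ by 12.4-fold and 13.8-fold, then by 4.61-fold and 3.29-fold. *CNGB1 (1 of 2)*, *cnga3a* and *cnga3b* did not divide by fish group in this way.

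The difference between the fish groups was tested with an interaction term in edgeR, an analysis added after the values had been seen. It was called at an FDR under 0.01 for 5 of 12564 genes (0.0398%), of which 2 were *cnga1* and *CNGA1 (2 of 2)*. The interaction is the log2 fold change in fish 3 and 4 minus that in fish 1 and 2, and for *cnga1* it was -2.87 (standard error 0.42, FDR 3.26e-04). For *CNGA1 (2 of 2)* it was -2.24 (standard error 0.40, FDR 0.00602). It was -2.02 for *slc24a1* (FDR 0.042), -1.67 for *cngb1a* (FDR 0.234) and 1.74 for *cngb3* (FDR 0.126), none of them called. For *CNGB1 (1 of 2)*, *cnga3a* and *cnga3b* it was 0.04, 0.30 and 0.07. The call of *CNGA1 (2 of 2)* was lost without scaling factors (FDR 0.0371) and without fish 4 (FDR 0.0209). Each fish group held 2 fish, so whatever distinguishes those fish cannot be told apart. The study took sex into its design as a variable, and since the labels do not say which fish were male or female, sex is among these.

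**Figure D4:**
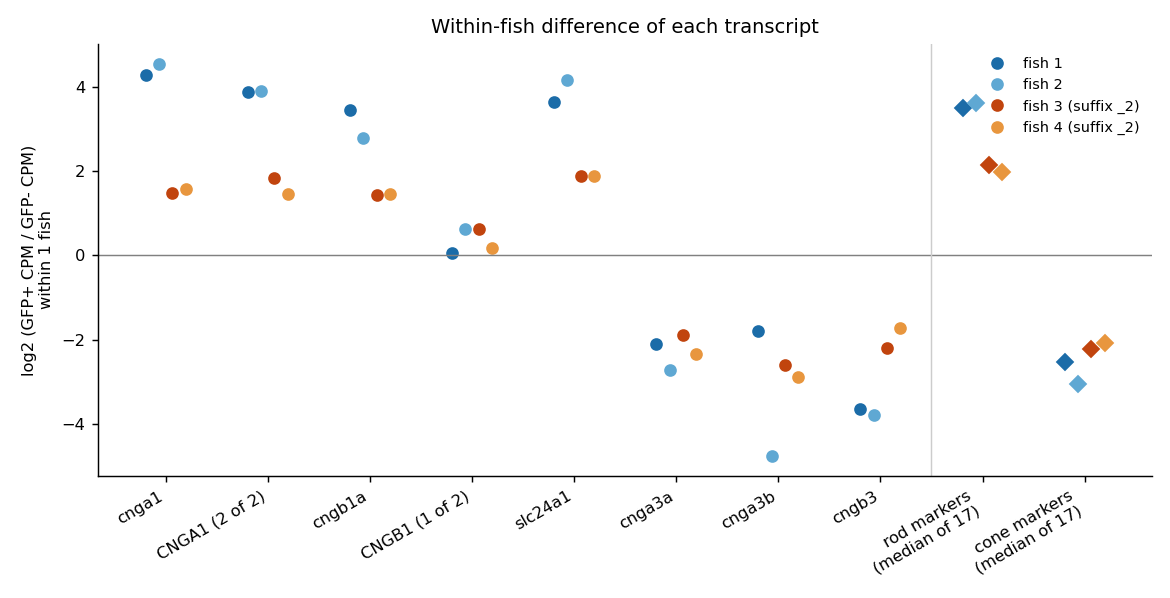
Log2 ratio of GFP+ to GFP- CPM within each fish for the 8 members (circles) and the median over 17 rod and 17 cone marker genes (diamonds). For *cnga1* fish 1 and 2 lie at 4.27 and 4.54 and fish 3 and 4 at 1.49 and 1.58, and the rod markers fall from 3.50 and 3.62 to 2.15 and 1.99. The cone markers lie at -2.52 and -3.04 in fish 1 and 2 and at -2.22 and -2.07 in fish 3 and 4.

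The level of rod markers was examined in the same fish groups. The median of 17 rod markers in GFP- libraries was 147 and 169 CPM in fish 1 and 2 and 494 and 560 CPM in fish 3 and 4. Their median log2 ratio of GFP+ to GFP- was 3.50 and 3.62, then 2.15 and 1.99. The interaction was negative for 15 of the 17 rod markers, with a median of -1.38 and none called. Over all genes tested it was negative for 6192 of 12564, with a median of 0.02. Of 17 cone markers it was negative for 1, with a median of 0.55 and none called. The difference between populations was thus smaller in fish 3 and 4 for most markers of both lists. Mitochondrial genes took 12.4% and 19.1% of GFP+ counts and 25.0% and 26.9% of GFP- counts in fish 1 and 2. In fish 3 and 4 they took 39.3% and 28.9% of GFP+ counts and 66.1% and 58.7% of GFP- counts. The part of rod RNA in the GFP- sort and of mitochondrial RNA in the interaction was not tested.

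Fits of edgeR within each fish group, which rest on 2 fish each and share the estimate of spread over genes, kept the direction of all 8 members. In fish 1 and 2 alone the log2 fold change was 4.45 for *cnga1*, 3.92 for *CNGA1 (2 of 2)*, 3.15 for *cngb1a* and 3.94 for *slc24a1*. In fish 3 and 4 alone these values were 1.49, 1.60, 1.40 and 1.84. These fits were chosen after the values had been seen. The number of members called was 7 in fish 1 and 2, where 1001 of 11924 genes tested were called. In fish 3 and 4 it was 6, since the FDR of *cngb1a* was 0.0316, and 277 of 9430 genes tested were called. For *cnga3a*, *cnga3b* and *cngb3* the values were -2.36, -2.81 and -3.66 in fish 1 and 2 and -2.14, -2.78 and -2.004 in fish 3 and 4.

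Levels of several members also differed between the fish groups within a population. The mean GFP- level of fish 3 and 4 exceeded that of fish 1 and 2 by 8.04-fold for *cnga1*, 11.3-fold for *CNGA1 (2 of 2)* and 4.44-fold for *slc24a1*. In GFP+ libraries the same ratio was 1.06 for *cnga1* and 1.06 for *slc24a1*, and 2.51 for *CNGA1 (2 of 2)*. Such ratios between fish depend on the TMM factors, which were 1.27, 1.31, 0.519 and 0.696 in GFP- libraries of fish 1 to 4. Without these factors *cnga1* was at 45.7, 85.0, 258 and 218 CPM in GFP- libraries. In GFP+ libraries it was then at 1068, 1982, 1145 and 933 CPM. The cone genes *cnga3b* and *cngb3* were higher in fish 3 and 4 in both populations, by 6.57-fold and 3.02-fold in GFP- and by 5.23-fold and 9.44-fold in GFP+ libraries. The median cone marker moved the other way in GFP- libraries, from 1806 and 1819 CPM in fish 1 and 2 to 1064 and 853 CPM in fish 3 and 4. *CNGB3 (2 of 2)*, the adjacent gene model, did not follow *cngb3*. Its ratio of fish 3 and 4 to fish 1 and 2 was 0.338 in GFP- and 0.978 in GFP+ libraries. Reads could have been split between these models, so the ratio of *cngb3* is uncertain. None of these differences between fish were tested.

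The remaining channel and exchanger genes were examined as a family. Of 8 tested channel genes, which include 7 members, 3 were higher in GFP+ libraries, 4 were lower and 1 was not called, with a median log2 fold change of -0.94 beside -0.02 over all genes tested. *cnga4*, named for a subunit of the olfactory channel, had 0 counts in all GFP+ libraries and 1 count in total over the GFP- libraries. It did not pass the filter. Of 6 tested exchanger genes, *slc24a1* was higher, *SLC24A2 (1 of 2)* was lower and 4 were not called. *SLC24A2 (1 of 2)* (ENSDARG00000042988, Zv9 chr1:11245714-11280431, reverse strand) is a copy of another gene of the same exchanger family. It was counted at 199, 109, 286 and 133 CPM in GFP+ libraries and at 789, 631, 1224 and 655 CPM in GFP- libraries, with no overlap.

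Its log2 fold change was -2.23 (standard error 0.26) with an FDR of 3.14e-06 by edgeR, similar in size to that of *cnga3a*. Counts of *slc24a1* were 1.66 to 5.42 times those of *SLC24A2 (1 of 2)* in GFP+ libraries, and counts of *SLC24A2 (1 of 2)* were 4.75 to 29.0 times those of *slc24a1* in GFP- libraries. The log2 ratio of *slc24a1* to *SLC24A2 (1 of 2)* was higher in GFP+ by 5.12 ± 1.28 (SD, n = 4 fish) in 4 of 4 fish (exact sign-flip p = 0.13, adjusted 0.333). The other exchangers were not called, with a log2 fold change of -1.27 for *slc24a3* (FDR 0.0194), -1.23 for *SLC24A2 (2 of 2)* (FDR 0.0806), -1.04 for *slc24a4a* (FDR 0.525) and -0.85 for *slc24a4b* (FDR 0.41). *SLC24A5* and *slc24a6a* did not pass the filter.

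Genes that set the level of the channel ligand divided in the same manner. Of 5 phosphodiesterase 6 subunits, which hydrolyse cyclic GMP, 3 were higher in GFP+ libraries and 2 were lower. The catalytic subunits *pde6a* (log2 fold change 2.55) and *pde6b* (3.04) and the inhibitory subunit *pde6g* (3.04) were higher, and the cone catalytic subunit *pde6c* (-2.51) was lower. Of 3 tested guanylate cyclases, which make cyclic GMP, *gucy2f* (3.17) and *gc2* (3.03) were higher and *gc3* (-2.34) was lower. Of 6 guanylate cyclase activators, which sense calcium, *guca1a* (2.75) and *guca1b* (2.69) were higher, *guca1d* (-3.24) and *guca1e* (-1.80) were lower and 2 were not called.

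**Figure D5:**
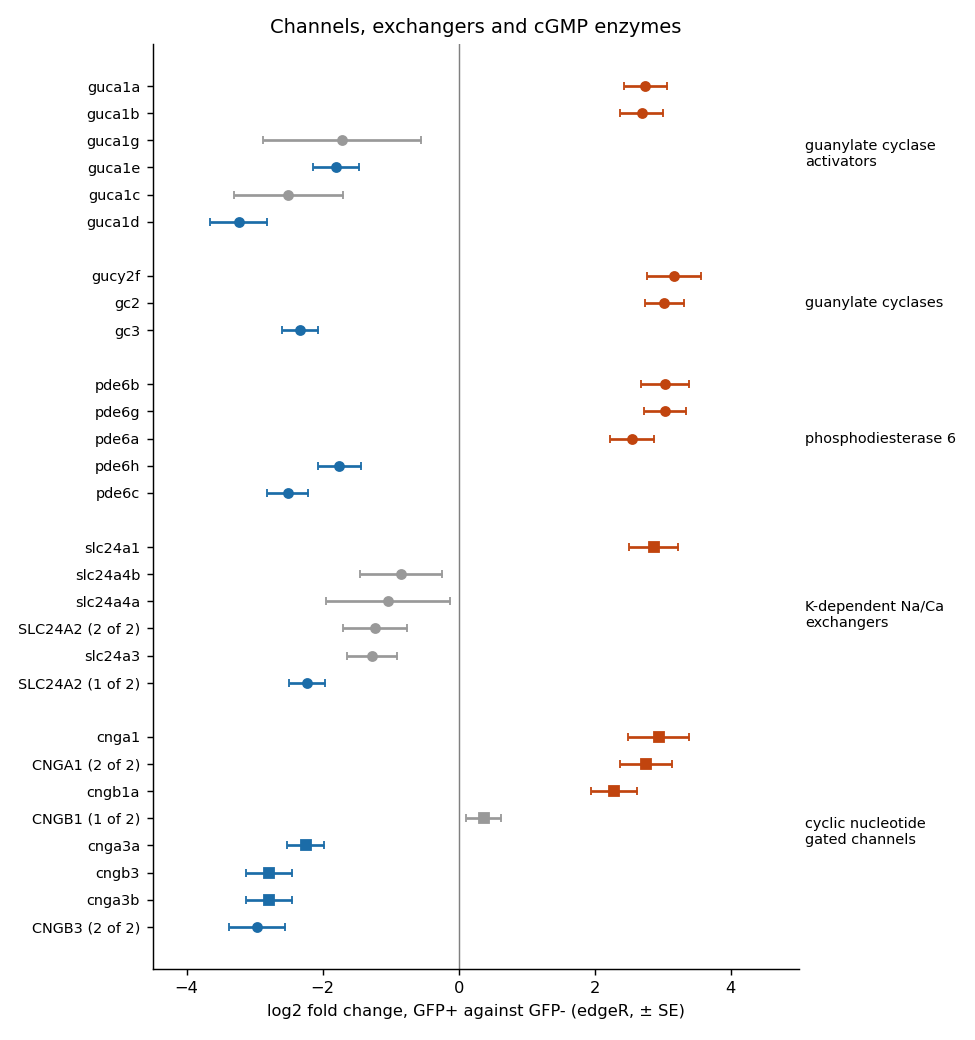
Log2 fold change of GFP+ against GFP- by edgeR with its standard error for the tested channel, exchanger, phosphodiesterase 6, guanylate cyclase and guanylate cyclase activator genes. Squares are the 8 members and circles other genes; orange marks genes higher and blue genes lower at an FDR under 0.01, and grey genes were not called. *CNGB1 (1 of 2)*, at 0.37, is the grey square.

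Calmodulins bind the rod beta subunit in mammals, and most of their genes were not called. Of 6 calmodulin genes, 1 (*calm2a*, log2 fold change -1.56, FDR 0.00507) was lower in GFP+ libraries and 5 were not called. Disc rim proteins associate with the rod beta subunit in mammals. Of 5 such genes, *rom1a* (3.16) and *rom1b* (2.85) were higher in GFP+ libraries, *prph2a* (-2.25) was lower, and *prph2l* (1.55, FDR 0.0111) and *prph2b* (-0.0019, FDR 0.998) were not called.

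The members varied together within their groups over the 8 libraries. The Pearson correlation of log2 CPM was 0.97 between *cnga1* and *CNGA1 (2 of 2)*, 0.98 between *cnga1* and *slc24a1*, and 0.92 to 0.95 among the cone genes. *cngb1a* correlated with *slc24a1* at 0.93 and with *CNGA1 (2 of 2)* at 0.75. *CNGB1 (1 of 2)* stood apart, at -0.05 with *cnga1* and 0.32 with *cngb1a*. The 8 points share the populations and the fish, so these values are given as a description.

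Among genes outside the members, those most like *cnga1* over the 8 libraries were *CASKIN2 (2 of 4)* (Pearson r of log2 CPM 0.99), the receptor tyrosine kinase gene *kita* (0.99) and the rhodopsin-like gene *rhol* (0.98). For *slc24a1* they were *pde6a* (0.99), *rho* (0.99), which encodes rhodopsin, and the arrestin gene *sagb* (0.99). *cnga3a* was most like *kera* (0.995), *vmp1* (0.991) and *samsn1b* (0.975).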

How the data were processed

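RNA from GFP+ and GFP- retinal cells of 4 fish was amplified (Ovation RNA-Seq System) and sequenced on a MiSeq. Reads had been trimmed (Sickle), merged (FLASH) and aligned to Zv9 (BWA) by the authors, and the deposited counts per Ensembl gene came from HTSeq-count without normalization. The processing notes also list SAMtools and edgeR. The authors' table also holds their own comparison (log2 fold changes, a likelihood ratio score, p-values and FDR), which was not used, and a scaled signal per library that the authors deposited. From that signal 100% of the values came out as whole reads within 0.01 reads, and the count test on them called 403 genes higher and 709 lower. Of these reads 100% equalled the deposited counts, so this fit repeats the same counts on another set of genes and is not an independent check. HTSeq's counters for unassigned reads, 34.4% to 55.3% of the totals, were left out. Symbols are those of the authors' table for 13325 genes and of a table of gene names for 10867 others. Zv9 coordinates are those of the authors' table.

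Testing of counts used edgeR 4.0.16 under R 4.3.3 (scaling by TMM with factors from 0.519 to 1.54, filterByExpr, trended dispersion, quasi-likelihood F test, fish as a block), with DESeq2 1.42.0 as an alternative. Ratios, exact tests and Wilson intervals (95%) used Python 3.11.15 with scipy 1.17.1, and figures used matplotlib 3.10.9. Levels are CPM of TMM-scaled library sizes, and means are given ± SD. Standard errors given for edgeR are the absolute log2 fold change divided by the square root of the F statistic. The upper limit for a count of 0 is 3 counts. The methods of the study state that both populations came from the same fish. The deviations of the 2 libraries of a fish from the population means correlated over genes at 0.323, 0.292, 0.333 and 0.214 in fish 1 to 4, and at -0.169 to -0.0616 on average with other fish. The deviations within a population sum to 0 for each gene, so negative values with other fish follow in part from the calculation. These averages also do not separate a shared fish from a shared fish group. The test was checked on counts simulated with 200 changed genes (log2 change of 2), of which 82.5% were recovered, with 1 false call. The simulated counts held no differences between fish, so the check does not show how the block performs. The changed genes were drawn from those above the median level, and each gene was given exactly the trended dispersion. The check therefore does not cover changes in genes of lower level or a spread particular to a gene. Alternatives were no block, a likelihood ratio test, DESeq2, other scaling, no filter, no mitochondrial genes and each fish left out.

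The members and gene lists were chosen with earlier results of these data known. Named are all members, the tested genes of their families, up to 4 genes per pathway list by smallest p, and the 3 genes most correlated with *cnga1*, *slc24a1* and *cnga3a*. *prph2b*, *grk1b*, *mpeg1*, *slc6a6b* and *si:ch211-89f7.1* were added to the named genes once their values were known. No sequences and no transcript lengths were used here.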

Additional observations from a re-analysis of the deposited data

Results flagged for a closer look

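For 2 members the change differed between the fish groups by a test of the difference itself, the interaction in edgeR with fish as a block. The log2 fold change of *cnga1* in GFP+ against GFP- libraries was lower in fish 3 and 4 than in fish 1 and 2, with an interaction of -2.87 (FDR 3.26e-04). Over the 7 alternatives the value ranged from -3.02 to -2.42 and the highest FDR was 0.00326. The interaction of *CNGA1 (2 of 2)* was -2.24 (FDR 0.00602), and over the alternatives it ranged from -2.45 to -1.79 with a highest FDR of 0.0371. In both genes the GFP- level was higher in fish 3 and 4. Genes outside the members with a called interaction included the taurine transporter gene *slc6a6b* (-3.99) and *si:ch211-89f7.1* (-2.72). At an FDR under 0.05 there were 21 genes, and 763 had an unadjusted p under 0.05. No library stood apart from its population by Dixon's test in any of the 16 groups of 4 libraries examined for the members, a test that marks about 1 in 20 groups by chance.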

How the results depend on the processing

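All 8 members kept their direction under all 14 alternatives. The 7 calls remained under 12 of these, all but the fit without the replicate block, which kept 1 (*cngb1a*), and the fit of fish 3 and 4 alone, which kept 6. Among the 12 is the fit on reads recovered from the authors' scaled signal, which repeats the deposited counts and is not an independent check. Without the block 187 genes were called in all, 45 higher and 142 lower. The rod over cone difference was then 4.56 with an exact permutation p of 0.0286 over the 8 libraries, the smallest these can give. That permutation ignores the pairing and treats the 2 libraries of a fish as independent. The likelihood ratio test called 1683 genes, 1112 of them lower. Without scaling factors 574 were higher and 373 lower, so that 60.6% of calls were higher against 35.5% with TMM, and the median log2 fold change of all genes was 0.33 against -0.02. Leaving out each fish in turn gave 509 to 921 calls, 180 to 352 higher and 329 to 569 lower, with 7 members called each time, and a rod over cone difference of 4.04 to 4.90. Fish 3 and 4 alone gave 277 calls, 91 higher and 186 lower, an alternative chosen after seeing the data. The interaction call count was 18 without the filter and 3 to 27 with each fish left out. With each fish left out, uncalled interactions changed sign for *CNGB1 (1 of 2)* (-0.26 to 0.31), *cnga3a* (-0.016 to 0.61) and *cnga3b* (-0.97 to 1.97). The causes were not tested. Levels at few counts, such as *cnga3b* in GFP+ cells of fish 2, are limited by depth.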
